A study of Mus musculus with 18 samples.

Results

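The Myc locus was taken as the Myc gene with 100 kb before its start and 500 kb after its end, and every accessible peak that overlapped this stretch of mouse chromosome 15 was a member. In build mm9 the stretch runs from 61716946 to 62321929 (605.0 kb), and it held 93 of the 194284 peaks of the data set. A pair of genes, Myc and Pvt1, span much of it, and both are transcribed from the plus strand. Myc lies at 61816946 to 61821929, and the long noncoding RNA gene Pvt1 lies at 61869542 to 62209651 (340.1 kb). Members were chosen by position alone, and each is named here by the distance in kb of its midpoint from the Myc transcription start site (TSS), so that the peak at +281.0 kb lies in a Pvt1 intron far downstream of Myc.

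MYC is a basic helix-loop-helix leucine zipper transcription factor that pairs with MAX and drives genes of ribosome production, metabolism and the cell cycle. Its gene is surrounded by long stretches with no other protein-coding gene, in which enhancers that differ from one cell type to the next contact the Myc promoter, and many of these lie within and beyond Pvt1. BET proteins bind acetylated histones at such enhancers, and in many blood cancers Myc transcription falls when they are displaced. In macrophages, LPS acts through TLR4 on NF-κB, AP-1 and IRF factors, and IL-10 acts through STAT3.

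The assay was ATAC-seq, in which a transposase cuts open DNA and the reads over a region measure how open it is, in bone marrow-derived macrophages (BMDMs). The cells came from 3 male Il10-/- mice of the C57BL/6J background, aged 12 weeks, and were grown for 6 days with medium conditioned by L929 cells. All groups therefore lacked the cells' own IL-10. Cells were given 500 nM (+)-JQ1, an inhibitor of the bromodomains of BET proteins, or 10 ng/mL IL-10 for 12 hours, or neither (untreated in the labels, vehicle in the study's methods), and per the labels they then had 50 ng/mL LPS or PBS for 4 hours more, 16 hours in all. This gave 6 groups of 3 libraries, which are unstimulated cells, cells with (+)-JQ1 or IL-10 alone, and LPS-stimulated cells without pretreatment (LPS), after (+)-JQ1 (LPS + (+)-JQ1) or after IL-10 (LPS + IL-10). The labels number the replicates of each group without tying a number to a mouse, so p-values measure the spread between these libraries. Replicates numbered 1 and 3 were each sequenced within 1 lane, while the replicate 2 libraries were divided by stimulation, those with LPS being on lane 6 and the rest on lane 5.

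The total count in peaks was 12020526 to 25908198 per library, and members held 0.0303% to 0.0446% of it. Levels are CPM, counts scaled to library size with TMM factors. Unstimulated libraries had TMM factors of 1.04 to 1.24 against 0.896 to 1.05 in the others, so that comparisons with unstimulated cells depend on the scaling. Scaling by total counts moved the median log2 fold-change of the members with LPS from 0.10 to -0.13. The median of all tested peaks went from -0.03 to -0.26. All 6 macrophage marker genes had an accessible promoter (gene medians of 3.08 to 20.3 CPM per kb), as had 9 of 15 markers of other cells (1.01 to 17.8). The highest of the latter was S100a8, a gene of neutrophils and monocytes. Those with no promoter peak included Cd3e, Cd3g, Cd8a, Hba-a1 and Col1a2. The part of the Il10 gene that the allele lacks is not stated in the sources used here, so its promoter peak (4.78 to 9.61 CPM per kb) checks nothing. In these bulk libraries, fewer cells of a type and less open chromatin per cell cannot be told apart.

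The central 300 bases of 4 peaks that recur in what follows are printed from the plus strand of the mm9 genome. They were chosen after their values were seen, for the following reasons. The peak at +286.2 kb had the largest rise with LPS after pretreatment. That at +315.9 kb had the third largest rise with LPS in untreated cells and 2 AP-1 matches. Those at +231.7 and +404.4 kb had the rises with LPS + IL-10 that held throughout. Whether the deposited peak starts count from 0 or 1 is not stated, so a sequence may be off by 1 base. Capitals mark every match to 8 short motifs searched on both strands of the same 300 bases of all peaks, namely TGANTCA for AP-1, GGG and CC with 5 bases between them for NF-κB, a pair of GAAA with 2 bases between them for IRF, GAGGAAGT or GAGGAAC for PU.1 and other ETS factors, TTGCNNAA for C/EBP, TTCNNNGAA for STAT, CACGTG for the E-box that MYC and MAX bind, and CCA, AG and GGC with 2 bases between each for the core of the CTCF motif.
Peak at +231.7 kb, chr15:62048503-62048802: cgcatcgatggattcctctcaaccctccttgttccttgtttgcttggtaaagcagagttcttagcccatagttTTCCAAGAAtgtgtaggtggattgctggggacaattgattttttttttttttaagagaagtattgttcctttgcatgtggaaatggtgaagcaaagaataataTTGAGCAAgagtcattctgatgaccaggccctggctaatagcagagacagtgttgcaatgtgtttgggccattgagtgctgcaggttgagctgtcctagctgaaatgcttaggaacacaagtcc
Peak at +286.2 kb, chr15:62103026-62103325: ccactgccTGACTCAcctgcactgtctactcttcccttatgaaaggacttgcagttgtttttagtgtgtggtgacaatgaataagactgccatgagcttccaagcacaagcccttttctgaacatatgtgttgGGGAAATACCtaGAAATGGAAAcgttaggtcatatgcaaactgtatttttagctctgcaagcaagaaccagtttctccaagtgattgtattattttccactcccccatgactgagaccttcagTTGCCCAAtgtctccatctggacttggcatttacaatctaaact
Peak at +315.9 kb, chr15:62132716-62133015: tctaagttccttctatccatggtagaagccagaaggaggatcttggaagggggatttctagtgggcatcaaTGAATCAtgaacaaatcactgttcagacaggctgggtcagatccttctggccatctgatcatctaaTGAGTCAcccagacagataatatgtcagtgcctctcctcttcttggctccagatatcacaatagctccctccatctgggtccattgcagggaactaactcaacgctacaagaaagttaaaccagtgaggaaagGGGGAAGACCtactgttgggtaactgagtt
Peak at +404.4 kb, chr15:62221157-62221456: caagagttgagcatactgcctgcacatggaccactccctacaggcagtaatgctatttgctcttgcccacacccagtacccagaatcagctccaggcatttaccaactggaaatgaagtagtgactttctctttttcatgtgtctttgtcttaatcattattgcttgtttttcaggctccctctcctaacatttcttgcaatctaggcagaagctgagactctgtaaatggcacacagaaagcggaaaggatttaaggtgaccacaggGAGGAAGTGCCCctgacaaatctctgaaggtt

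The peak at +286.2 kb held 4, an AP-1 match near its left end, adjacent NF-κB and IRF matches and a C/EBP match. The peak at +315.9 kb held 2 AP-1 matches and 1 for NF-κB. The peak at +231.7 kb held a STAT and a C/EBP match, and at +404.4 kb the PU.1 and NF-κB matches overlapped. These are matches of letters and not bound sites.

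Among all 93 members, the AP-1 letters occurred in 19 (20.4%) against 12.1% of all peaks, those for NF-κB in 36 (38.7% against 32.8%), those for PU.1 and ETS factors in 16 (17.2% against 10.6%), those for STAT in 14 (15.1% against 8.74%) and those for IRF in 8 (8.60% against 4.40%). C/EBP letters were in 11 (11.8% against 12.5%). The E-box was found in 2 members (2.15% against 4.33%) and the CTCF core in 1 (1.08% against 5.26%), a peak just upstream of Myc at -1.9 kb. Of the 13 members that rose with LPS, 4 held AP-1 letters and 6 those for NF-κB, against 15 and 30 of the other 80 members. The largest and second largest of these rises, at +281.0 and +463.1 kb, held no match to any motif searched, nor did that at +407.4 kb. The peak at +94.1 kb held 3 AP-1 and 2 NF-κB matches. The median GC content was 46% in members and 47% in all peaks.

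Peaks were dense in this stretch, at 15.4 per 100 kb against 7.32 over all chromosomes with peaks, with a median width of 891 bp against 957 bp. Of the 93 members, 2 lay upstream of Myc, 2 over Myc, 11 between Myc and Pvt1, 66 over Pvt1 and 12 beyond it. By annotation, 64 lay within Pvt1 introns, 25 between genes, 2 over Myc exons and 2 over Pvt1 exons. The annotation also has the pseudogene H2afy3 on the minus strand inside a Pvt1 intron. The deposited classes counted 11 members as promoter and 82 as distal.

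Per kb of peak, the highest mean levels over the 18 libraries were at -1.9 kb (26.6 CPM per kb), at +71.6 kb in a Pvt1 intron (20.3) and, next, at +0.7 kb over the start of Myc, against a median of 1.74 over members. The map of levels shows these peaks around the start of Myc and within the first part of Pvt1. It shows a second group of tall peaks in the last part of Pvt1 and beyond it.

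**Figure D1:**
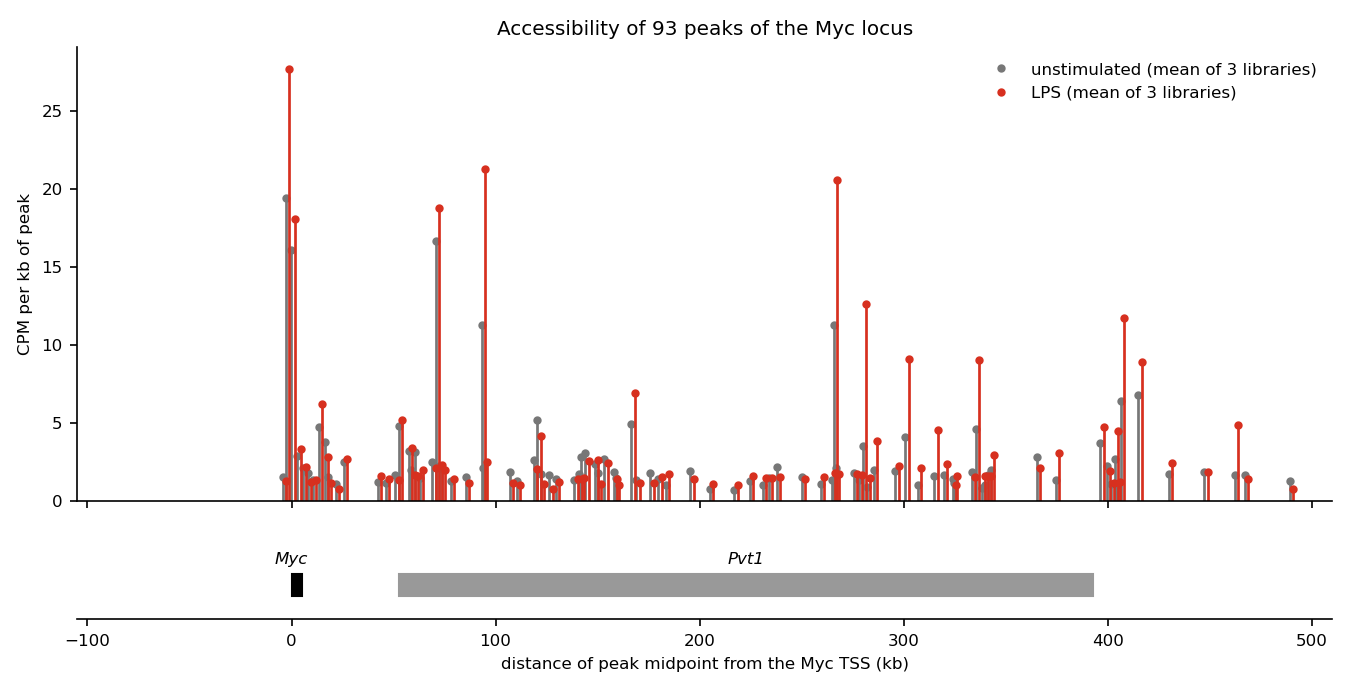
Mean accessibility in CPM per kb of peak width against the distance in kb of each peak's midpoint from the Myc TSS, for 93 peaks in unstimulated cells (gray) and with LPS (red), each the mean of 3 libraries, with the extent of Myc and Pvt1 drawn below. The tallest peak lies at -1.9 kb (a mean of 26.6 CPM per kb over all 18 libraries), and several peaks of the last part of Pvt1 are taller with LPS.

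The deposited classes count the peaks at -1.9 and +0.7 kb, near the start of Myc, as promoter. That at -1.9 kb was called with LPS and with (+)-JQ1 alone and is given below. That at +0.7 kb, at chr15:61817000-61818283 over the first exon of Myc, is named the Myc promoter peak here. It was open in every library and was not called in any comparison. Its level was 16.7, 20.2 and 25.2 CPM in the 3 unstimulated libraries and 26.9, 23.3 and 19.5 CPM with LPS. These groups overlapped, and the highest library was replicate 3 in the first and replicate 1 in the second. The log2 fold-change with LPS was 0.17 ± 0.14 (SE, n = 3), with a 95% interval of -0.11 to 0.44 (adjusted p = 0.404 by edgeR's quasi-likelihood test).

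With (+)-JQ1 the Myc promoter peak was at 26.6, 25.4 and 23.1 CPM alone and at 31.3, 26.4 and 26.8 CPM with LPS. The means of 25.0 and 28.2 CPM lay above those of untreated cells, and none of the differences passed the test. The log2 fold-change of LPS + (+)-JQ1 against LPS was 0.27 ± 0.14 (SE, n = 3), with an interval of 0.00077 to 0.54 (adjusted p = 0.292), and that of (+)-JQ1 alone against unstimulated cells was also 0.27 ± 0.14 (adjusted p = 0.222). With IL-10 the level was 19.2, 19.6 and 19.9 CPM alone and 22.1, 22.7 and 22.1 CPM with LPS, the narrowest spreads of the 6 groups. The log2 fold-change of LPS + IL-10 against LPS was -0.06 ± 0.14 (interval -0.33 to 0.21, adjusted p = 0.843). A log2 fold-change of 0.5, the smallest that was called, lies within the interval for (+)-JQ1 and outside those for LPS and LPS + IL-10. By total counts and with loess offsets the direction turned for LPS (-0.05 and -0.15), for (+)-JQ1 alone (-0.0034 and -0.19) and for LPS + IL-10 against LPS (0.0042 and 0.02).

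Of the peaks at the Pvt1 promoter, that at +51.7 kb (mean levels of 1.46 to 1.87 CPM over the 6 groups) ended just before the gene start. That at +53.4 kb (9.88 to 11.8 CPM) covered the start, and neither was called in any comparison. At +53.4 kb the log2 fold-change with LPS was 0.12 ± 0.15 (SE, n = 3). Upstream of Myc, the peak at -1.9 kb was at 8.57, 10.4 and 13.7 CPM in unstimulated libraries and at 16.2, 15.6 and 14.9 CPM with LPS. All LPS libraries lay above all unstimulated ones, and the rise was called (log2 fold-change 0.51 ± 0.15, adjusted p = 0.00588). It was no longer called by total counts (0.29), with loess offsets (0.27) or without replicate 1 (0.37) or 2 (0.47) of the unstimulated group or replicate 1 of the LPS group (0.48). With (+)-JQ1 alone the peak was at 17.8, 18.3 and 16.0 CPM, again above unstimulated cells (0.66 ± 0.15, adjusted p = 4.02e-04), a call that was lost by total counts (0.39) and with loess offsets (0.34).

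**Figure D2:**
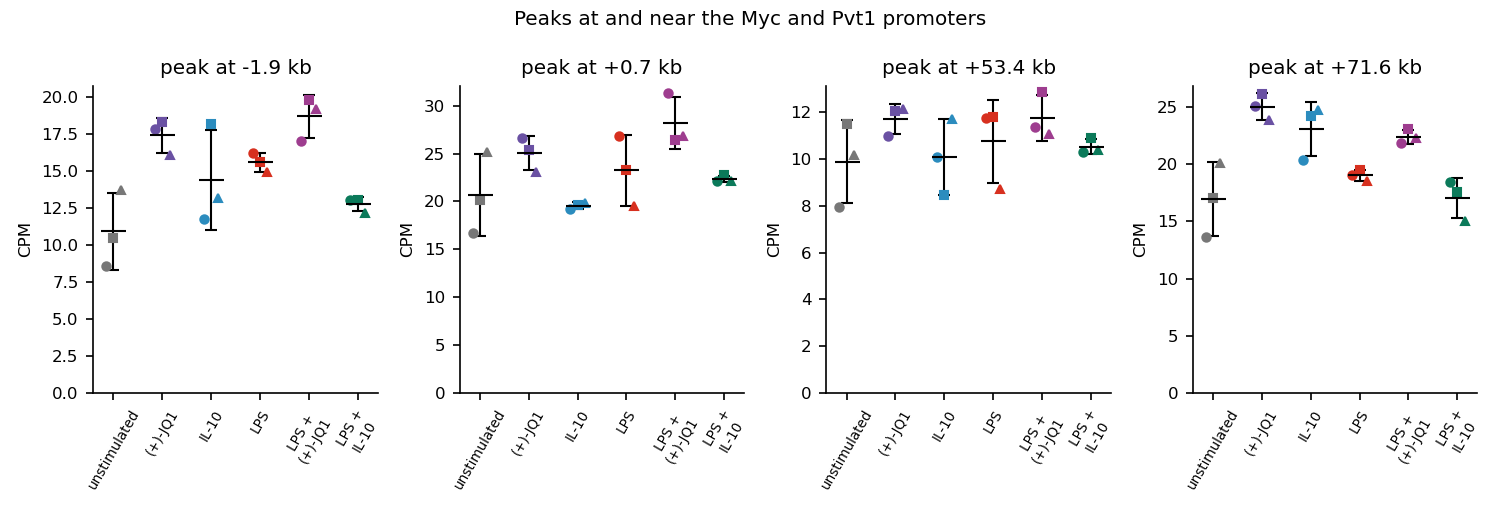
Accessibility in CPM of 4 peaks, at -1.9, +0.7, +53.4 and +71.6 kb, in the 6 groups, with circles, squares and triangles for replicates 1, 2 and 3 and a bar for the mean ± SD of 3 libraries. At +0.7 kb, over the start of Myc, the group means lie between 19.6 and 28.2 CPM.

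With LPS, peaks far downstream of Myc rose and a few within Pvt1 fell. Against unstimulated cells, 13 members rose and 4 fell, 18.3% of the 93, where 22% of all 194230 tested peaks were called (11.7% higher and 10.2% lower). A differentially accessible region (DAR) had an adjusted p under 0.05 and a |log2 fold-change| above 0.5. The share of members called was not above that of all peaks, and the members' median log2 fold-change was 0.10 against -0.03. By total counts, 10 members rose and 6 fell, while 12774 of all tested peaks were called higher and 37583 lower. Every one of the 13 rises had the same direction in all 3 pairs of same-numbered libraries, including replicates 1 and 3, which were each compared within 1 lane. The calls were made from these same libraries, so this agreement is a description and not separate support.

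The largest rise was at +281.0 kb, in a Pvt1 intron. Its level was 7.36, 5.33 and 7.12 CPM in unstimulated libraries and 24.4, 24.2 and 21.9 CPM with LPS. The groups were far apart, with a log2 fold-change of 1.83 ± 0.16 (adjusted p = 1.73e-18). Beyond Pvt1 at +463.1 kb (chr15:62279764-62280420), the level went from 1.27, 0.659 and 1.37 CPM to 3.17, 2.60 and 3.88 CPM (1.54 ± 0.30, adjusted p = 2.39e-05). At +315.9 kb (chr15:62132462-62133271), with its 2 AP-1 matches, it went from 1.61, 1.70 and 0.658 CPM to 4.23, 3.90 and 2.93 CPM (2.82-fold, adjusted p = 3.80e-06). All 3 calls held under every alternative that was run for them. The remaining rises, which are listed because they complete the count and not by the rule for named peaks, had log2 fold-changes of 1.24 at +375.6 kb, 1.15 at +301.7 kb, 0.98 at +336.2 kb, 0.97 at +286.2 kb, 0.91 at +94.1 kb, 0.87 at +407.4 kb, 0.86 at +266.7 kb, 0.73 at +404.4 kb, 0.59 at +343.7 kb and 0.51 at -1.9 kb.

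The falls lay within Pvt1. At +127.2 kb (chr15:61943468-61944818) the level was 2.01, 2.36 and 2.41 CPM in unstimulated libraries and 0.735, 0.999 and 1.31 CPM with LPS, apart without overlap (-1.18 ± 0.30, adjusted p = 0.00156). At +142.7 kb (chr15:61959220-61960051) it was 2.48, 2.14 and 2.47 CPM against 1.15, 0.949 and 1.55 CPM (-0.97 ± 0.29, adjusted p = 0.00864), and without LPS replicate 2 this call was lost (-0.82). A fall at +238.6 kb was close to both thresholds (-0.50 ± 0.20, adjusted p = 0.0482) and was lost with DESeq2, in a fit of the 2 groups alone and without any of 4 libraries, namely unstimulated replicates 1 and 3 and LPS replicates 1 and 3. One at +61.1 kb, named to complete the count, had the same direction in 2 of 3 same-numbered pairs (-0.91 ± 0.34).

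These changes were unevenly placed along the locus. Pvt1 was split at its middle, 222.7 kb from the Myc TSS, a split made after the values were seen. Of the 37 members in the first part of the gene, 1 rose and 3 fell, with a median log2 fold-change of -0.23. Of the 29 in the last part, 8 rose and 1 fell, with a median of 0.47. Of the 12 members beyond Pvt1, 3 rose and none fell, while none of the 11 between Myc and Pvt1 was called. Summed over the Pvt1 gene, members held 189 ± 2.66 CPM in unstimulated cells and 248 ± 7.53 CPM with LPS (SD, n = 3). The log2 ratio was 0.39 ± 0.03 (SE), and 0.16 by total counts. A two-sided exact permutation test over 3 libraries against 3 cannot give less than p = 0.1, which it gave (0.194 after adjustment over 35 segment comparisons). Beyond Pvt1 the sum went from 39.8 ± 5.60 to 58.9 ± 2.52 CPM (SD, n = 3; log2 ratio 0.57, 0.34 by total counts, exact p = 0.1).

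**Figure D3:**
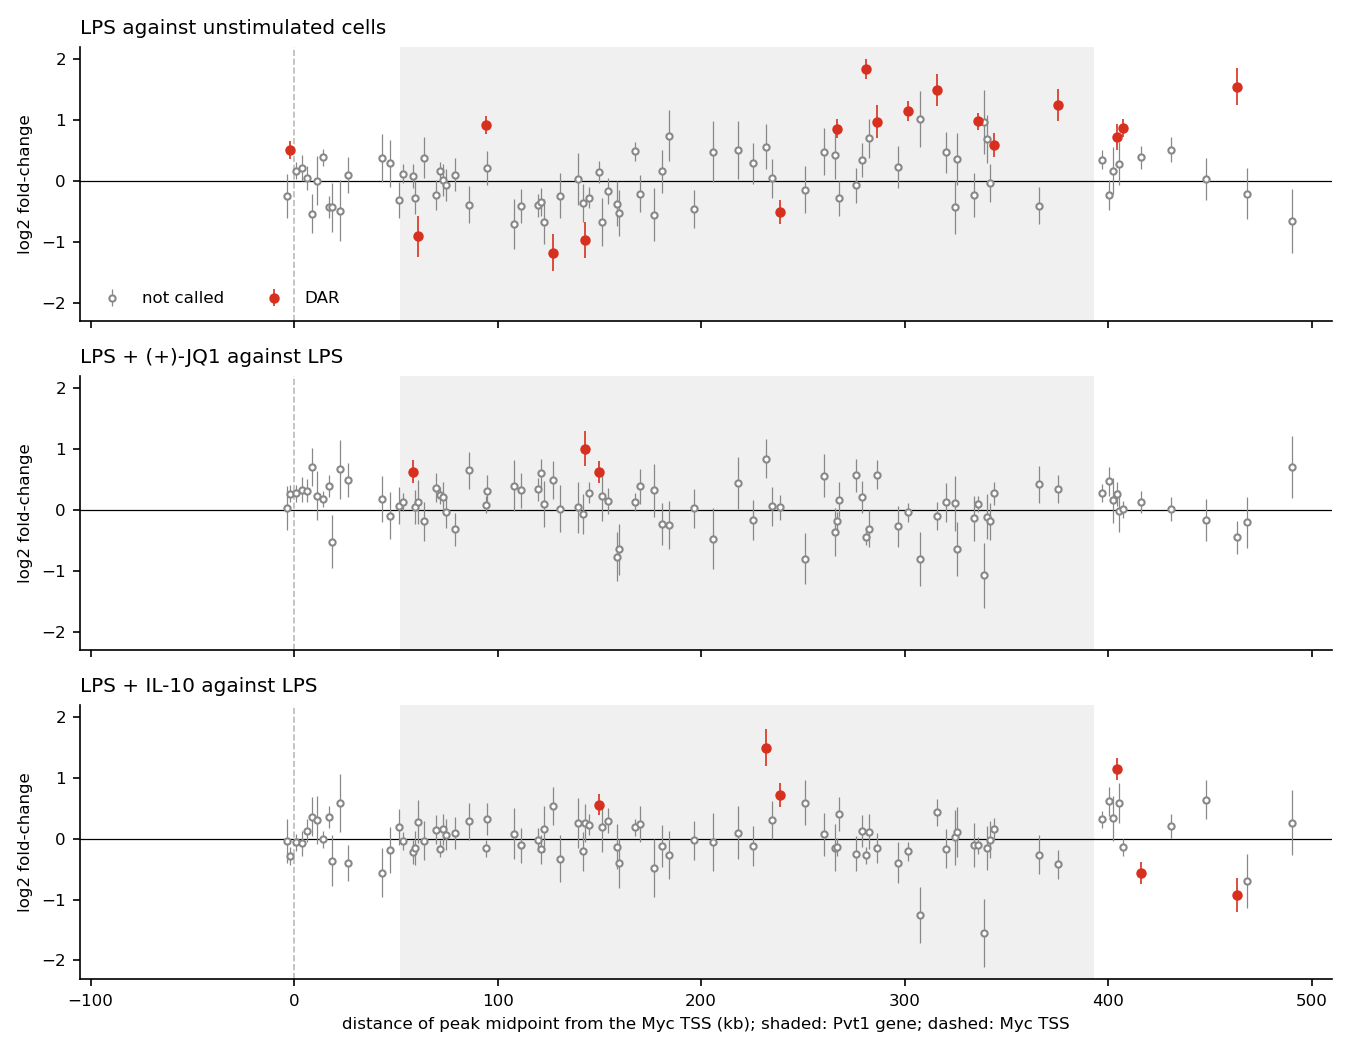
Log2 fold-change with its SE against the distance of each of 93 peaks from the Myc TSS, for LPS against unstimulated cells, LPS + (+)-JQ1 against LPS and LPS + IL-10 against LPS, with DARs filled in red and the Pvt1 gene shaded. In the top panel 13 DARs lie above 0 and 4 below, and 11 of the 13 lie at +266.7 kb or farther downstream.

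LPS was also given to cells pretreated with (+)-JQ1 or IL-10, and these comparisons have no library in common with the one above. With (+)-JQ1, 17 members rose with LPS and none fell, 18.3% against 9.27% of all tested peaks (5.7% higher and 3.58% lower), and the median log2 fold-change was 0.31 against -0.01. At an unadjusted p under 0.05 in edgeR's test, 28 members were higher and 3 lower, against 43378 of the 194230 tested peaks in either direction. DESeq2 called none lower of the 74 members to which it gave an adjusted p, against 6577 lower of 149083 peaks. With the lane as a covariate 16 rose and 1 fell, at +121.3 kb (-0.59). The summed level of the promoters of other-cell markers was 40.5 to 41 CPM per kb with (+)-JQ1 alone and 29.5 to 35.5 with LPS + (+)-JQ1, and its part in these results was not tested. With IL-10, 22 rose and 3 fell, 26.9% against 15.4% of all tested peaks (8.94% higher and 6.48% lower), with a median of 0.28 against 0.00. In these 2 comparisons the share of members that rose exceeded that of all peaks, and this difference between shares was not tested, since neighboring peaks are not independent.

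Of the 13 members that rose with LPS in untreated cells, 10 (76.9%) also rose in (+)-JQ1-treated cells, where they made up 58.8% of the 17 rises, and 10 rose in IL-10-treated cells, where they made up 45.5% of the 22. These were the same 10 peaks, at +94.1, +281.0, +286.2, +301.7, +315.9, +336.2, +343.7, +375.6, +404.4 and +463.1 kb. All 13 had a log2 fold-change above 0 in (+)-JQ1-treated cells and 12 of 13 in IL-10-treated cells. Of the 4 falls none was called in either, and 2 and 3 had the same direction. The matching overlaps over all tested peaks are not given here, so this sharing cannot be read as particular to the locus.

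The strongest rises with pretreatment were at +286.2 kb (chr15:62102808-62103545), the peak with AP-1, NF-κB, IRF and C/EBP matches. Its level was 1.67, 1.37 and 1.32 CPM in unstimulated cells, 0.596, 1.19 and 0.784 CPM with (+)-JQ1 alone and 0.639, 0.438 and 0.517 CPM with IL-10 alone. With LPS it was 2.39, 3.35 and 2.81 CPM in untreated cells, 4.37, 5.02 and 3.41 CPM after (+)-JQ1 and 2.69, 2.67 and 2.30 CPM after IL-10. Each of the 9 stimulated libraries exceeded each of the 9 others. The log2 fold-change with LPS was 0.97 ± 0.27 in untreated cells, 2.32 ± 0.29 after (+)-JQ1 and 2.25 ± 0.31 after IL-10. The peak had also fallen with IL-10 alone (-1.43 ± 0.34, adjusted p = 0.00253), a call that held under every alternative.

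Next to the promoter peak, a pair of peaks at the end of Myc and just beyond it rose with LPS after (+)-JQ1, and they are named here after their values were seen. At +3.7 kb (chr15:61820058-61821281), over a Myc exon, the level was 3.64, 2.80 and 2.20 CPM with (+)-JQ1 alone and 6.06, 5.18 and 4.46 CPM with LPS + (+)-JQ1 (0.85 ± 0.22, adjusted p = 0.00361), a rise lost without (+)-JQ1 replicate 3 (0.67). At +6.4 kb (chr15:61822219-61824485) it was 2.86, 4.62 and 3.29 CPM against 7.68, 5.62 and 5.62 CPM (0.81 ± 0.20, adjusted p = 0.00243), and the peak also rose with LPS after IL-10 (0.66 ± 0.20), which was lost without IL-10 replicate 2 (0.55) or LPS + IL-10 replicate 2 (0.51). In untreated cells the log2 fold-changes of these peaks with LPS were 0.21 and 0.05 and were not called, and neither difference from the effect after (+)-JQ1 passed the interaction test (adjusted p = 0.273 and 0.117).

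At +375.6 kb (chr15:62191976-62193098), near the end of Pvt1, the level rose from 1.25, 1.33 and 1.05 CPM with (+)-JQ1 alone to 5.30, 5.08 and 3.18 CPM with LPS + (+)-JQ1 (1.88 ± 0.27, adjusted p = 2.12e-08). At +463.1 kb it rose from 0.477, 0.981 and 0.889 CPM to 2.99, 2.57 and 1.67 CPM (1.58 ± 0.33, adjusted p = 1.87e-04). After IL-10, the second largest rise was at +231.7 kb (2.19 ± 0.32, adjusted p = 3.20e-08) and the third at +315.9 kb, from 1.48, 1.80 and 1.60 CPM to 5.74, 4.52 and 4.73 CPM (1.62 ± 0.25, adjusted p = 7.94e-08). In each of these comparisons the groups did not overlap. The falls after IL-10 were at +86.1 kb (2.41, 2.63 and 2.21 CPM to 1.27, 1.51 and 1.47 CPM), at +121.3 kb (3.74, 3.11 and 5.40 CPM to 1.98, 2.38 and 3.08 CPM) and at +415.9 kb (6.49, 6.13 and 6.25 CPM to 4.42, 3.65 and 4.50 CPM). Their log2 fold-changes were -0.77 ± 0.28, -0.71 ± 0.23 and -0.58 ± 0.18. The first no longer passed the test whichever library was left out, with log2 fold-changes of -0.83 to -0.70, the second was lost without IL-10 replicate 3 (-0.46) or LPS + IL-10 replicate 1 (-0.57) or 2 (-0.68), and the third without LPS + IL-10 replicate 2 (-0.49).

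Whether BET inhibition changed the locus in LPS-stimulated cells is answered by LPS + (+)-JQ1 against LPS. In all, 3 members were called and all were higher with (+)-JQ1, 3.23% against 5.23% of all tested peaks (1.74% higher and 3.49% lower). All lay in the first part of Pvt1. At +142.7 kb, one of the peaks that fell with LPS, the level was 1.15, 0.949 and 1.55 CPM with LPS and 2.07, 2.51 and 2.60 CPM with LPS + (+)-JQ1, against 2.48, 2.14 and 2.47 CPM in unstimulated cells. The LPS libraries lay below both of these groups, and the log2 fold-change was 1.00 ± 0.29 (adjusted p = 0.0192). With (+)-JQ1 alone the level at +142.7 kb was 1.49, 1.54 and 1.99 CPM, below each unstimulated library. At +58.3 kb (chr15:61874663-61875865) the level was 3.81, 4.29 and 4.18 CPM with LPS and 6.29, 5.68 and 6.94 CPM with LPS + (+)-JQ1 (0.63 ± 0.19, adjusted p = 0.0281). At +149.6 kb (chr15:61965563-61967531) it was 4.92, 6.04 and 4.72 CPM against 9.82, 7.48 and 7.14 CPM (0.62 ± 0.17, adjusted p = 0.0156).

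These calls did not all pass the test with fewer libraries, although their log2 fold-changes stayed at 0.85 to 1.20, 0.54 to 0.70 and 0.48 to 0.74 with any 1 library left out. Without LPS replicate 1 no member was called, and without LPS replicate 2 or LPS + (+)-JQ1 replicate 3 only the peak at +149.6 kb was. With all libraries no member was called lower by edgeR or by DESeq2, which called 5504 lower of the 149083 peaks with an adjusted p. At an unadjusted p under 0.05 in edgeR's test, 10 members were higher and 2 lower, against 33934 of the 194230 tested peaks in either direction. The peak at +281.0 kb was at 24.4, 24.2 and 21.9 CPM with LPS and at 25.6, 13.8 and 13.6 CPM with LPS + (+)-JQ1, so that replicate 1 was as high as the LPS libraries and replicates 2 and 3 were lower. Its log2 fold-change was -0.44 ± 0.15 (adjusted p = 0.0544). The adjusted p was 0.0223 by total counts, 0.0360 with loess offsets, 0.0320 with the lane as a covariate, 0.163 by DESeq2 and 0.223 in a fit of the compared groups alone, with a size under 0.5 each time. Without LPS + (+)-JQ1 replicate 1 the log2 fold-change was -0.78 (adjusted p = 1.17e-04), a called fall, and without replicate 2 or 3 of that group it was -0.29 or -0.27. For the peaks at +286.2, +315.9, +375.6 and +463.1 kb the log2 fold-changes were 0.57, -0.10, 0.34 and -0.45, and none passed the test. The sum over Pvt1 was 266 ± 26.4 CPM with LPS + (+)-JQ1 against 248 ± 7.53 CPM with LPS (SD, n = 3; log2 ratio 0.10, exact permutation p = 0.4).

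With (+)-JQ1 alone, 5 members rose and 2 fell against unstimulated cells, 7.53% against 11% of all tested peaks (7.84% higher and 3.18% lower). By total counts the split was 0 higher and 10 lower and the members' median log2 fold-change went from -0.19 to -0.47. The shift was shared by all tested peaks, of which total counts called 3825 higher and 27420 lower. Their median went from -0.085 to -0.366. The rises at +167.4, -1.9, +121.3 and +71.6 kb kept a positive log2 fold-change by total counts and were no longer called. The largest rise was at +167.4 kb (chr15:61983554-61985110), where the level was 8.10, 7.03 and 8.06 CPM in unstimulated libraries and 11.6, 14.2 and 13.4 CPM with (+)-JQ1 (0.76 ± 0.15, adjusted p = 6.28e-05, and 0.48 and not called by total counts). The next was that at -1.9 kb given above. The third was at +121.3 kb, from 2.61, 3.08 and 4.99 CPM to 5.31, 5.74 and 5.85 CPM (0.65 ± 0.22, adjusted p = 0.0310), which was lost by total counts (0.39) and without any of 4 libraries, unstimulated replicate 1 (0.48) or 2 (0.55) and (+)-JQ1 replicate 2 (0.64) or 3 (0.62). The peak at +71.6 kb (chr15:61888053-61889068) was at 13.7, 17.0 and 20.1 CPM in unstimulated libraries and at 25.1, 26.2 and 23.8 CPM with (+)-JQ1 (0.56 ± 0.14, adjusted p = 0.00177). A rise at +415.9 kb, named to complete the count, had a log2 fold-change of 0.58. The call at +71.6 kb was lost by total counts (0.28), with loess offsets (0.13) and without unstimulated replicate 1 (0.43).

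The largest fall with (+)-JQ1 alone was at +158.7 kb (chr15:61975263-61976013), where 27, 30 and 15 reads were counted in unstimulated libraries and 7, 6 and 5 with (+)-JQ1. In CPM these were 1.81, 1.65 and 0.822 against 0.417, 0.420 and 0.261. The log2 fold-change was -1.95 ± 0.44 (adjusted p = 5.12e-04), and the fall held under every alternative that gave it a value, including total counts. The other fall was at +238.6 kb (6.76, 4.56 and 5.53 CPM to 3.88, 4.06 and 3.24 CPM, -0.59 ± 0.20, adjusted p = 0.0358). It was lost by DESeq2, with loess offsets and without unstimulated replicate 1 (-0.44) or (+)-JQ1 replicate 1 (-0.63) or 3 (-0.50).

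**Figure D4:**
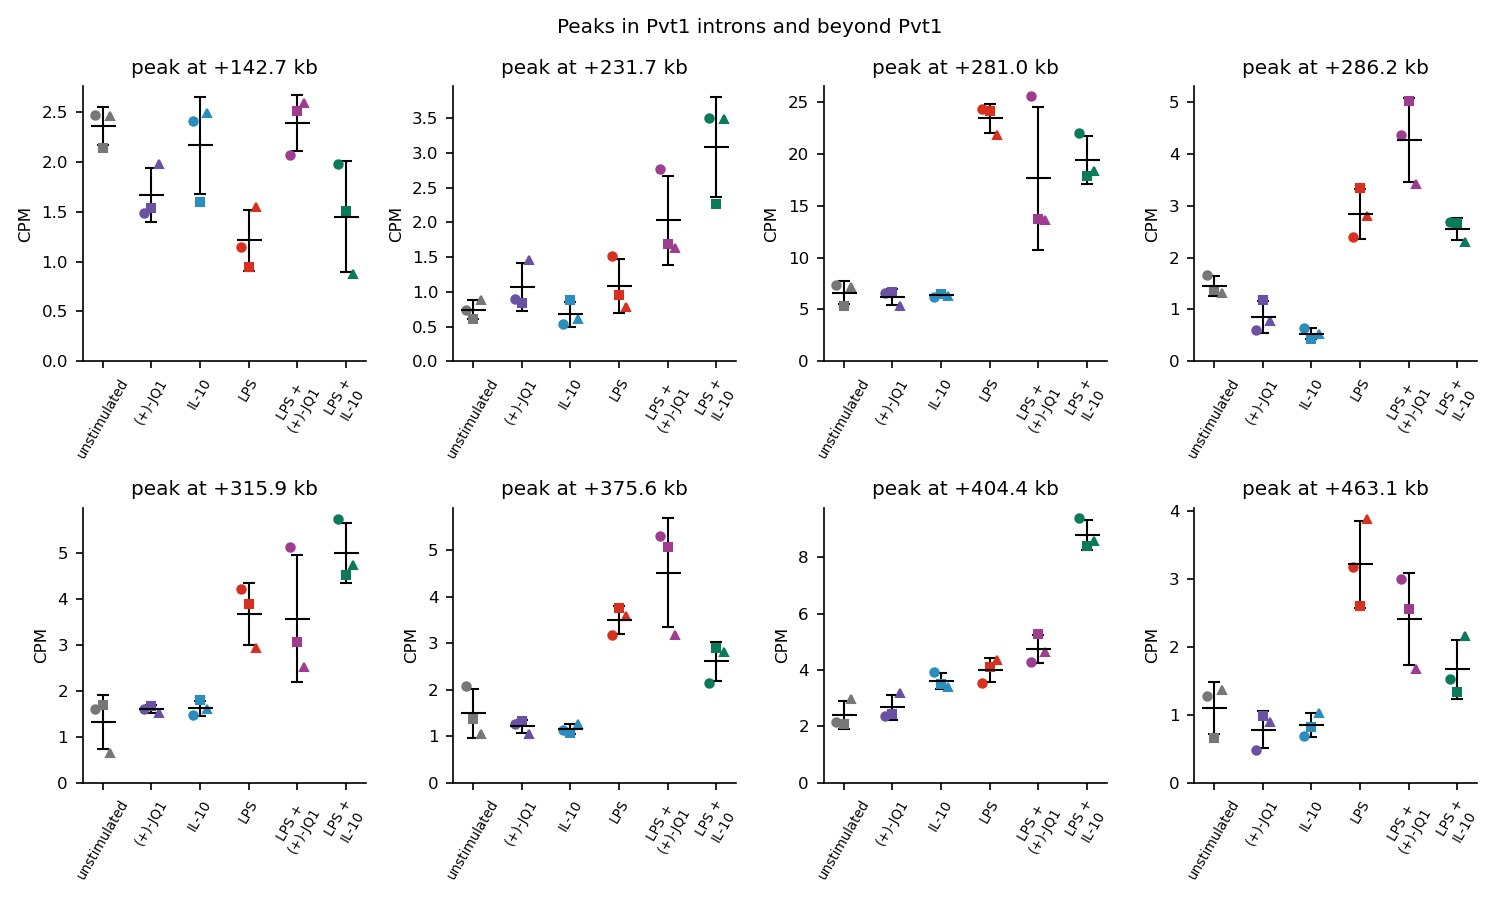
Accessibility in CPM of 8 peaks in Pvt1 introns and beyond Pvt1 in the 6 groups, with circles, squares and triangles for replicates 1, 2 and 3 and a bar for the mean ± SD of 3 libraries. At +281.0 kb the LPS libraries lie between 21.9 and 24.4 CPM and 2 of the 3 LPS + (+)-JQ1 libraries below 14, while at +404.4 kb the LPS + IL-10 libraries, at 8.40 to 9.40 CPM, lie above all others.

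The question of what IL-10 changed in stimulated cells is answered by LPS + IL-10 against LPS. Against LPS alone, 4 members rose and 2 fell with LPS + IL-10, 6.45% against 8.77% of all tested peaks (4.25% higher and 4.52% lower), or 4 and 1 by total counts. The summed level of the promoters of other-cell markers was 38.2 to 43.5 CPM per kb in the LPS + IL-10 libraries and 29.9 to 33.7 in the LPS libraries, and its part in these results was not tested. The rise at +231.7 kb (chr15:62048297-62049009), in a Pvt1 intron next to the H2afy3 pseudogene, had the STAT and C/EBP matches shown above. Its level was 1.52, 0.949 and 0.776 CPM with LPS, 3.50, 2.26 and 3.49 CPM with LPS + IL-10 and 0.541, 0.875 and 0.611 CPM with IL-10 alone. Only the libraries with both agents lay above 2 CPM, apart from LPS + (+)-JQ1 replicate 1 at 2.76 CPM. The log2 fold-change against LPS was 1.49 ± 0.30 (adjusted p = 1.40e-04).

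At +404.4 kb (chr15:62220862-62221752), beyond Pvt1, the level was 3.54, 4.10 and 4.36 CPM with LPS and 9.40, 8.40 and 8.59 CPM with LPS + IL-10, against 3.93, 3.50 and 3.38 CPM with IL-10 alone and 2.14, 2.09 and 2.96 CPM in unstimulated cells. The libraries with both agents lay above all 15 others, and the log2 fold-change against LPS was 1.14 ± 0.19 (adjusted p = 1.25e-06). These rises at +231.7 and +404.4 kb held under every alternative, including each library left out. At +238.6 kb (chr15:62054227-62056808) the level was 3.63, 4.44 and 3.76 CPM with LPS and 5.08, 6.72 and 7.63 CPM with LPS + IL-10 (0.72 ± 0.19, adjusted p = 0.00633), which was lost without LPS replicate 1 (0.65) or LPS + IL-10 replicate 3 (0.57). The fourth rise, at +149.6 kb (0.56 ± 0.17), is named to complete the count. That peak had also risen with LPS + (+)-JQ1 against the same LPS libraries.

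The larger fall was at +463.1 kb, from 3.17, 2.60 and 3.88 CPM with LPS to 1.52, 1.33 and 2.16 CPM with LPS + IL-10, without overlap (-0.92 ± 0.28, adjusted p = 0.0185). It was lost without LPS replicate 1 (-0.93) or 3 (-0.77) or LPS + IL-10 replicate 1 (-0.85) or 2 (-0.79). At +415.9 kb (chr15:62232477-62233169) the level was 6.02, 6.44 and 6.15 CPM with LPS and 4.42, 3.65 and 4.50 CPM with LPS + IL-10 (-0.56 ± 0.18, adjusted p = 0.0318), a fall lost by total counts (-0.50) and without any 1 of the 6 libraries. Without LPS replicate 1, only the rises at +231.7 and +404.4 kb remained. The summed level over Pvt1 was 245 ± 12.5 CPM with LPS + IL-10 and 248 ± 7.53 CPM with LPS (SD, n = 3; log2 ratio -0.02, exact permutation p = 0.9).

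IL-10 alone changed 2 members, 2.15% against 8.68% of all tested peaks (5.15% higher and 3.53% lower). At an adjusted p under 0.05 whatever the fold, 5 members passed, against 11.5% of all tested peaks. Beside the fall at +286.2 kb, the peak at +167.4 kb rose from 8.10, 7.03 and 8.06 CPM to 11.9, 10.5 and 12.3 CPM (0.58 ± 0.15, adjusted p = 0.00550), as it had with (+)-JQ1 alone against the same unstimulated libraries. This rise was lost by total counts (0.37), with loess offsets (0.34) and without unstimulated replicate 2 (0.51). By total counts no member rose and 7 fell, while 2469 of all tested peaks were called higher and 16705 lower. Without unstimulated replicate 3, the library with the TMM factor nearest to those of the treated cells, 11 members were called. The share of all tested peaks called in that fit is not given here.

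The effect of LPS itself differed with pretreatment at 2 members for (+)-JQ1 and at 7 for IL-10, as tested by the interaction of both agents, against 3.78% and 7.92% of all tested peaks (2.15% and 7.53% of members). Both calls for (+)-JQ1 were positive, as were 0.643% of all tested peaks (3.13% negative). For IL-10, 4 were positive and 3 negative, against 2.02% and 5.9% of all tested peaks. The counts of members were 6 and 7 by total counts, all positive, 0 and 2 with loess offsets, and 0 to 8 and 1 to 8 with 1 library left out. The main sign over all tested peaks also turned with the scaling. For (+)-JQ1, 4762 were positive and 1850 negative by total counts, and 1447 and 1111 with loess offsets. For IL-10 they were 12302 and 5177 by total counts, and 4174 and 4005 with loess offsets. At +142.7 kb LPS lowered the peak in untreated cells (-0.97), and the log2 fold-change with LPS after (+)-JQ1 was 0.52 ± 0.28 (SE, n = 3) and was not called (adjusted p = 0.266). At +286.2 kb the rise with LPS was larger after either agent, and both differences were lost with loess offsets (1.22 and 1.14) and in 9 of 12 fits with 1 library left out (1.15 to 1.63 and 1.16 to 1.41), and that for (+)-JQ1 also in a fit of the compared groups alone (1.34). The peaks at -1.9 and +71.6 kb, 2 of the 3 most open of the locus, had lower log2 fold-changes with LPS after IL-10 (-0.17 and -0.44) than in untreated cells (0.51 and 0.17).

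The promoters whose levels over the 18 libraries most resembled that of the Myc promoter peak were those of Emp1 (r = 0.915), an epithelial membrane protein, Oit3 (0.899), Cdk6 (0.873), a kinase of the G1 phase of the cell cycle, Arpc5 (0.865), a subunit of the ARP2/3 complex, and Tmem71 (0.863). They were the top 5 of 15415 promoter peaks with a mean of at least 5 CPM, among which the median r was 0.443. Like the Myc peak, the Emp1 promoter had its highest group mean with LPS + (+)-JQ1 (22.0 CPM, against 16.5 CPM with LPS and 13.9 CPM in unstimulated cells). The libraries share their depth and scaling across promoters, and these correlations are a description with no test.

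Genes of the MYC network (MAX, its other partners, their antagonists and regulators) and established MYC targets were examined at their own promoters, from lists that name 14 and 20 genes. Of these, 13 and 19 genes had promoter peaks, 31 and 34 in all. With LPS, 5 network peaks and 8 target peaks rose and none fell, 16.1% and 23.5% against 14.3% of all promoter peaks that rose and 6.72% that fell. The largest rises were at Ccnd2, which encodes cyclin D2, from 20.5 ± 1.20 to 40.0 ± 2.28 CPM (SD, n = 3; log2 fold-change 0.96 ± 0.14, adjusted p = 5.53e-09) at chr6:127101473-127107941, and at Zbtb17, which encodes the MYC partner MIZ1, from 17.8 ± 2.99 to 31.4 ± 3.91 CPM (0.82 ± 0.14). Max, the obligate partner of MYC, went from 44.8 ± 9.98 to 72.0 ± 10.3 CPM (0.68 ± 0.14, adjusted p = 7.41e-05). By total counts 5 of these 65 peaks were called with LPS, and 6 with loess offsets. Of all promoter peaks, 5229 were higher and 2464 lower with LPS by TMM scaling, and 2157 and 5361 by total counts.

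With (+)-JQ1 alone, 10 network and 16 target peaks rose and none fell (32.3% and 47.1% against 22.9% of all promoter peaks higher and 2.15% lower), led by Polr1b, a subunit of RNA polymerase I, from 13.0 ± 4.19 to 26.6 ± 3.93 CPM (1.03 ± 0.15). With IL-10 alone, 6 and 8 rose and none fell (19.4% and 23.5% against 8.72% higher and 2% lower). All these comparisons use the unstimulated libraries, 2 of which had the highest TMM factors of the 18, and the counts for (+)-JQ1 and IL-10 alone were not computed under other scalings. The direction over all promoter peaks depended on the scaling. With (+)-JQ1 alone, 8404 were higher and 788 lower by TMM, 2409 and 4442 by total counts, and 451 and 1444 with loess offsets. With IL-10 alone these counts were 3199 and 732, 385 and 2268, and 328 and 698. With LPS after (+)-JQ1, 1 target peak rose, at Ccnd2 (chr6:127101473-127107941, 0.63 ± 0.14), and no network peak was called, against 4.75% of promoter peaks higher and 2.96% lower. With LPS after IL-10, both Ccnd2 peaks and 1 at Mxi1, an antagonist of MYC, rose, and peaks at Mlxipl and Hspd1 fell, against 6.62% higher and 5.56% lower. Among stimulated cells, 1 target peak was called with LPS + (+)-JQ1 against LPS, against 1.73% of promoter peaks higher and 3.21% lower. It was the other Ccnd2 peak, at chr6:127099558-127101405, which fell from 26.1 ± 3.05 to 17.2 ± 2.29 CPM (-0.61 ± 0.14, adjusted p = 9.27e-04). The Ccnd2 peak at chr6:127101473-127107941 was not called in this comparison. With LPS + IL-10 against LPS, Max fell from 72.0 ± 10.3 to 49.4 ± 6.66 CPM (-0.54 ± 0.14, adjusted p = 0.00441), and among targets 4 peaks fell and 1 rose (11.8% and 2.94% against 3.95% and 3.03%). The falls were at both Ccnd2 peaks, at Hspd1 and at Nme1, and the rise was at Ldha, which encodes lactate dehydrogenase A. The Nme1 peak (chr11:93826772-93827390) was near the floor, at 1.13 CPM with LPS and 0.425 CPM with LPS + IL-10. It and the Ldha peak (chr7:54093769-54097355) were not the peaks of these genes that rose with (+)-JQ1 alone, which were not called here. Against these 6 calls over both lists, total counts gave 2 and loess offsets 2.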

How the data were processed

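ATAC-seq libraries of Il10-/- BMDMs (18 libraries, 6 groups of 3) were analysed. Per the labels and the study's methods, the authors aligned reads with Bowtie2 to mm9 in PEPATAC v0.9.0, called peaks with MACS2 in each library, joined the calls to 1 set of union peaks and classed them as promoter or distal with ChIPseeker. The authors deposited raw counts per union peak, with no normalization. The counting tool and any shift of read ends for the transposase are not given in the sources used here. A further 6 columns of counts matched no sample and were not used.

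Members were the peaks that overlapped Myc with 100 kb upstream and 500 kb downstream, by mm9 GENCODE M1. The members, lists and tests were chosen with earlier results of these data known. Counts were fitted once for all 18 libraries with the quasi-likelihood test of edgeR 4.0.16 in R 4.3.3 (filtering by group, TMM scaling, no block), and p-values were adjusted by Benjamini-Hochberg over the 194230 tested peaks in each of 9 comparisons, of which 2 were interactions. All 93 members passed the filter. SEs were derived from the test statistic, and 95% intervals are the estimate ± 1.96 SE. The script was tested on simulated data. The sequence of 1 peak and 1 marker gene are not reported here. For sums over segments of the locus, the test was an exact permutation test (two-sided).

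Peaks named were those at the starts of Myc and Pvt1, the 3 with the highest level per kb, up to 3 rises and 3 falls per comparison with 1 direction in all 3 same-numbered pairs, and each interaction. Alternatives were DESeq2 1.42.0, its size factors, total counts, loess offsets (span 0.3), no filter, the replicate block, the lane as a covariate, the compared groups alone, the FDR threshold alone and each library left out.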

Additional observations from a re-analysis of the deposited data

Results flagged for a closer look

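The effect of LPS differed with pretreatment at 9 points, each by an interaction term in edgeR's quasi-likelihood fit over all peaks, given here as the difference between log2 fold-changes with its SE (n = 3 libraries in each of 4 groups). For (+)-JQ1 the difference was 1.49 ± 0.41 at +142.7 kb (adjusted p = 0.0214) and 1.35 ± 0.41 at +286.2 kb (adjusted p = 0.0394). With 1 library left out they ranged from 1.34 to 1.68 and from 1.15 to 1.63, and they no longer passed the test in 4 and 9 of 12 such fits or with loess offsets. DESeq2 gave neither an adjusted p.

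For IL-10 the difference was -0.97 ± 0.26 at +415.9 kb (adjusted p = 0.00775), which was kept whichever of the 12 libraries was left out and was lost by total counts (-0.71). It was 1.00 ± 0.27 at +238.6 kb (adjusted p = 0.00929), which did not pass without 3 of the 12 in turn (0.85 to 1.15). The differences at +231.7 kb (1.62 ± 0.50), +448.3 kb (1.55 ± 0.49) and +286.2 kb (1.27 ± 0.42) did not pass without 7, 7 and 9 of the 12 libraries in turn (down to 1.45, 1.23 and 1.16) or with loess offsets. Those at -1.9 kb (-0.68 ± 0.21) and +71.6 kb (-0.61 ± 0.20) did not pass without 5 and 8 of the 12 in turn (ranges -0.88 to -0.48 and -0.75 to -0.48), by total counts or with loess offsets. At +448.3 kb (chr15:62264926-62265601) the level was 0.639, 0.681 and 0.658 CPM with IL-10 alone and 1.88, 1.27 and 2.71 CPM with LPS + IL-10, against 1.74, 1.32 and 0.712 CPM in unstimulated cells and 1.42, 0.999 and 1.37 CPM with LPS.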

How the results depend on the processing

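By total counts the calls (higher and lower) were 10 and 6 with LPS, 0 and 10 with (+)-JQ1 alone, 0 and 7 with IL-10 alone, 6 and 0 for the interaction of LPS with (+)-JQ1 and 7 and 0 for that with IL-10. All tested peaks shifted as well. The shares of their calls that were higher were 25.4%, 12.2%, 12.9%, 72.0% and 70.4% in the same order. With TMM scaling these shares were 53.4%, 71.2%, 59.4%, 17.0% and 25.5%. With loess offsets in edgeR, 3 members were called with (+)-JQ1 alone, 1 with IL-10 alone, 0 for the interaction with (+)-JQ1 and 2 for that with IL-10. Of all tested peaks, loess offsets called 3.61%, 3.06%, 1.32% and 4.21% in the same order. For the interaction with (+)-JQ1 under TMM scaling, 9 members were higher and 3 lower at an unadjusted p under 0.05 in edgeR's test. Of the 194230 tested peaks, 32101 passed that threshold in either direction. For this interaction DESeq2 called 1 higher, at +149.6 kb, and 1 lower, at +167.4 kb, of 32 members with an adjusted p. Over all 81282 peaks with an adjusted p it called 790 higher and 9935 lower. By the FDR threshold alone, 5 members were called with IL-10 alone. With the compared groups alone, 1 was called for the interaction with (+)-JQ1, and 4 rose and 4 fell with LPS + IL-10 against LPS.

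At the Myc promoter peak (+0.7 kb), total counts and loess offsets gave -0.05 and -0.15 for LPS, -0.0034 and -0.19 for (+)-JQ1 alone and 0.0042 and 0.02 for LPS + IL-10 against LPS. By total counts the summed log2 ratio was -0.05 over Myc and -0.12 between Myc and Pvt1 for LPS, and 0.01 over Myc and 0.05 over Pvt1 for LPS + IL-10 against LPS. Of the MYC network and target promoters, total counts and loess offsets called 5 and 6 with LPS (13 with TMM scaling) and 2 and 2 with LPS + IL-10 against LPS (6), and loess offsets called 2 with LPS + (+)-JQ1 against LPS (1). The cause of these changes was not tested.

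With 1 library left out in turn, 14 to 18 members were called with LPS, 13 to 17 and 16 to 20 with LPS after (+)-JQ1 and after IL-10, 3 to 9 with (+)-JQ1 alone (3 without unstimulated replicate 1), 1 to 11 with IL-10 alone (11 without unstimulated replicate 3, 6 without IL-10 replicate 1 and 1 without unstimulated replicate 2), 0 to 3 with LPS + (+)-JQ1 against LPS (0 without LPS replicate 1, 1 without LPS replicate 2 or LPS + (+)-JQ1 replicate 3), 2 to 5 with LPS + IL-10 against LPS (2 without LPS replicate 1, 3 without LPS replicate 3 or LPS + IL-10 replicate 2 or 3), 0 to 8 for the interaction with (+)-JQ1 (8 without unstimulated replicate 3, and 0 without LPS replicate 1 or LPS + (+)-JQ1 replicate 3) and 1 to 8 for that with IL-10 (1 without LPS + IL-10 replicate 3). The Myc promoter peak then ranged from 0.04 to 0.33 for LPS, 0.14 to 0.43 for (+)-JQ1 alone, 0.16 to 0.39 for LPS + (+)-JQ1 against LPS, -0.21 to 0.08 for IL-10 alone and -0.17 to 0.06 for LPS + IL-10 against LPS. In that comparison the summed ratio ranged from -0.15 to 0.03 over Myc and from -0.06 to 0.01 over Pvt1. For all fits with 1 library left out, the shares of all tested peaks called are not given here. Those counts describe the members alone.

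The replicate numbers are shared only as numbers. Over 45 pairs of same-numbered libraries the mean correlation of deviations from group means was 0.00573 (-0.0819 to 0.0644), against -0.00286 over 90 other pairs, and 9 of 18 libraries correlated best with one of their own number. With the replicate block, 13 members rose and 3 fell with LPS and 20 and 3 did so with LPS after IL-10. Under the block 1 named call, that at +238.6 kb with LPS, did not pass (-0.50), and it moved no count of calls by over 1.5 times. DESeq2 gave an adjusted p to 69 members with (+)-JQ1 alone, 74 in both comparisons with LPS + (+)-JQ1, and 32 and 56 for the interactions. No named call changed direction under any alternative, while the Myc promoter peak, which was not called, did so as given above. Members with few counts, such as that at +158.7 kb, limit what smaller differences can be seen.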
